A study of Mus musculus with 16 samples.

Results

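The respiratory chain and the ATP synthase of the inner mitochondrial membrane are built mostly from proteins encoded in the nucleus, with a small set of core subunits encoded in mitochondrial DNA. Complex I oxidises NADH, complex II oxidises succinate, complex III passes electrons to cytochrome c, complex IV reduces oxygen, and complex V, the ATP synthase, uses the resulting proton gradient to make ATP. Assembly factors help to build the complexes and are not part of the finished enzymes. Liver is rich in mitochondria, and its hepatocytes oxidise ethanol in a way that loads the chain with NADH.

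The transcripts described here are those of the nuclear genes for these proteins, in livers of mice with and without hepatic DRP1. This GTPase, the product of Dnm1l, divides mitochondria. Genes were taken by symbol: those that begin with Nduf, Uqcr, Cox4 to Cox8 or Atp5, and Sdha, Sdhb, Sdhc, Sdhd and Cyc1. Of 27288 genes in the table, 104 matched. Of these 12 were not protein-coding and 5 of the 92 protein-coding ones had a mean under 10 normalised reads over the 16 libraries, which left 87 genes. They comprise 36 genes of complex I, 4 of complex II, 9 of complex III, 13 of complex IV, 16 of complex V and 9 assembly factors. The assembly factors are 8 Ndufaf genes of complex I and Atp5s, an ATP synthase coupling factor placed here because it is not a subunit. Ndufa4, Ndufa4l2 and Cox7a2l were counted with complex IV. The gene nearest above the floor was Atp5g2, at a mean of 12.3 normalised reads, and the nearest below it was Cox7a1, at 9.07.

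The libraries are from C57BL/6 mice aged 8 to 10 weeks and fall into 4 groups of 4: mice labelled wild type and mice labelled liver-specific DRP1 knockout, each studied either as controls, here called control diet, or in the Gao-Binge alcohol model. That model combines feeding of an ethanol diet with a final high dose of ethanol. The labels do not name the Cre line, the deleted part of Dnm1l, or whether each library is from its own mouse, so p-values measure the spread between these libraries. Each library held 11425136 to 13864862 reads assigned to genes. Summed over the gene on control diet, Dnm1l was at 663 ± 56.1 normalised reads in wild type and 642 ± 72.7 in knockout (SD, n = 4). After ethanol the values were 743 ± 38.4 and 803 ± 99.3. The gene total does not check the genotype labels, since reads can come from exons that a deletion leaves in place, and "knockout" below means labelled knockout.

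Most of the 87 genes were abundant in these livers. Levels are compared between genes as normalised reads per kb of the longest principal transcript. The median of the 87 was 1332 per kb, against 74.0 for all 11829 protein-coding genes tested, and 64 of the 87 lay in the top 10% of those genes. The 6 below 74.0 per kb were Atp5g2, Ndufa4l2, Atp5g1, Ndufb2, Ndufaf5 and Atp5s. The highest was Atp5b, the catalytic beta subunit of the ATP synthase, at 7927 per kb, followed by Cox4i1, a core nuclear subunit of complex IV, at 7023, and Atp5g3, a gene for the membrane-ring c subunit, at 6743. The median level per kb was 915 for complex I, 2187 for complex II, 1958 for complex III, 2292 for complex IV and 1840 for complex V. Assembly factors were far lower, with a median of 148 per kb and a range from 56.2 (Ndufaf5) to 229 (Ndufaf1).

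**Figure D1:**
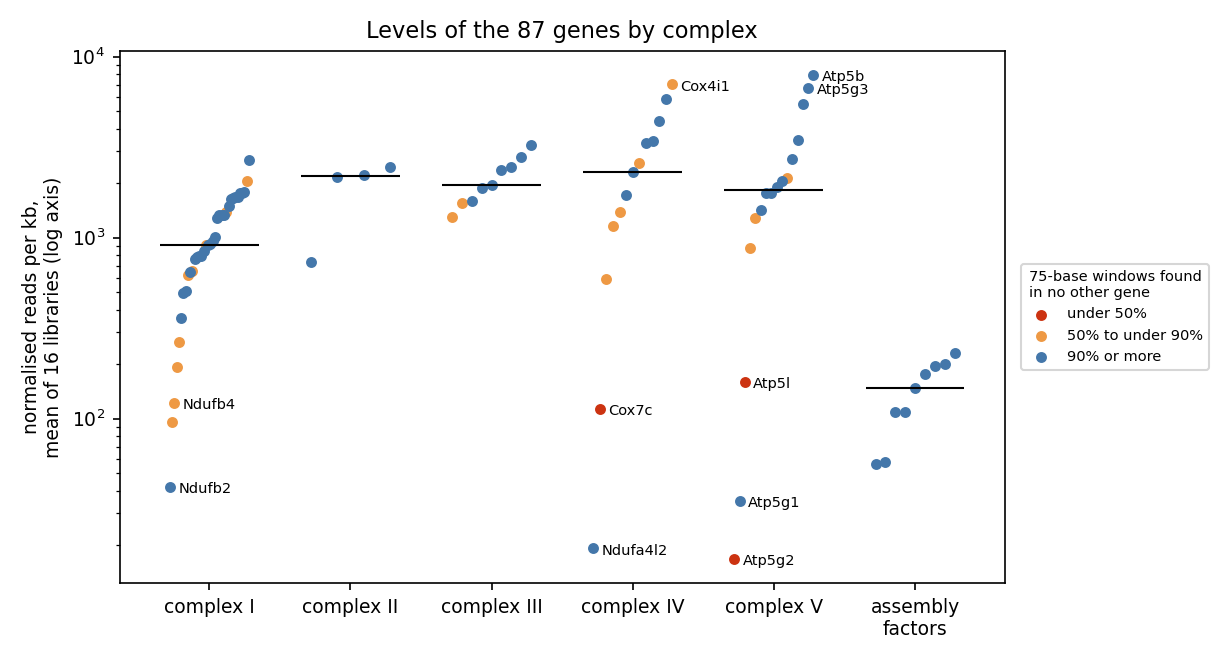
Mean level of each of the 87 genes over the 16 libraries, in normalised reads per kb on a log axis, by complex. Points are genes, black lines are medians and colours give the share of 75-base windows of the transcript that occur in no other gene; the 3 genes with less than 50% unique windows, Cox7c, Atp5l and Atp5g2, are among the lowest of their complexes.

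Some low levels belong to genes whose sequence is shared with other genes. For 50 of the 87 genes every 75-base window of the principal transcript was absent from all annotated transcripts of other genes, pseudogenes included. For 22 less than 90% of windows were. The share was 13.1% for Atp5g2, which had 16.8 reads per kb, 24.0% for Atp5l, a subunit of the ATP synthase membrane part, which had 159, and 49.6% for Cox7c, a small subunit of complex IV, which had 113. The values of these 3 genes are therefore uncertain, and how far shared sequence lowers them was not tested.

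The liver forms of subunits with tissue-specific isoforms made up nearly all transcripts in every group. Of the 3 genes that encode the same mature c subunit, Atp5g3 held 99.2% ± 0.107 (SD, n = 4) of the summed level per kb in wild type on control diet and 99.2% ± 0.177 in knockout after ethanol. This share depends on transcript length, 4715 bases for Atp5g1 against 723 for Atp5g3. Undivided by length, Atp5g1 had 169 normalised reads and Atp5g3 5081 in wild type on control diet. The part of Atp5g2 is uncertain, since 13.1% of its windows are unique. Cox4i1 held at least 99.9% of subunit 4 in every library. Cox8b, the muscle and heart form of subunit 8, was at 0 in all 8 control-diet libraries. Cox7a1, the muscle and heart form of subunit 7a, held 1.43% ± 0.419 of that pair in wild type on control diet and 0.620% ± 0.251 in knockout after ethanol. The muscle form Cox6a2, the testis form Cox6b2 and the lung form Cox4i2 had means over the 16 libraries of 2.25, 3.90 and 0.934 normalised reads. None of the 10 listed muscle marker genes reached the floor for testing.

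Genotype hardly separated these transcripts on control diet. Limma called 1 of the 87 genes higher in knockout and 0 lower at an adjusted p under 0.05, against a background of 6.4% of all 13256 tested genes called higher and 5.24% called lower. The median log2 fold change of the 87 was -0.01, and -0.01 over all tested genes. An unadjusted p under 0.05 was found for 4 of the 87 and for 3464 of the 13256 tested genes, and edgeR and DESeq2 on whole reads also called 0 lower. For 83 of the 87 the 95% interval of the fold change lay within 1.5-fold either way, and for 86 within 2-fold.

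Ndufaf5, which encodes a complex I assembly factor that hydroxylates a subunit of complex I (ENSMUSG00000027384, chromosome 2, 140170649 to 140203689 in GRCm38), was the gene that rose. The wild-type control libraries 1 to 4 held 62.1, 54.7, 47.6 and 66.4 normalised reads, and the knockout ones 87.0, 76.7, 82.9 and 76.5. Every knockout library was above every wild-type one, and the log2 fold change was 0.49 ± 0.15 (SE, limma adjusted p = 0.0390). After ethanol the knockout libraries held 63.0, 72.5, 76.8 and 60.6, and the wild-type ones 50.4, 50.1, 66.9 and 55.0. These groups overlapped (log2 0.29 ± 0.15 SE, not called). The call on control diet was lost in 15 of 31 alternative analyses, among them leaving out any 1 knockout control library, with adjusted p from 0.0243 to 0.150 over the alternatives.

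The lowest estimate on control diet was that of Ndufa4l2, a relative of Ndufa4 that is known to be induced in hypoxia. It had 24.7, 28.8, 19.3 and 26.0 normalised reads in wild type and 14.5, 21.8, 11.1 and 9.91 in knockout. Knockout library 2 lay above wild-type library 3, so the groups overlapped (log2 -0.79 ± 0.28 SE, limma adjusted p = 0.0766).

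The knockout control group itself was split. Measured as the median log2 deviation of the 87 genes from their mean over all libraries, knockout control libraries 1 and 2 stood at 0.43 and 0.24, and libraries 3 and 4 at -0.10 and -0.12. The wild-type control libraries lay between 0.00 and 0.22. Complex I stood at 0.45 and 0.22 against -0.10 and -0.13. Complex II spread less, with an SD of 0.12 over the 4 libraries against 0.28 for complex I.

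This difference between libraries was shared with other short transcripts. The median transcript of the 87 genes is 934 bases long, against 3013 for all tested protein-coding genes. The 617 other protein-coding genes with transcripts under 1000 bases had median deviations of 0.38, 0.22, -0.09 and -0.06 in knockout control libraries 1 to 4, and the 1465 genes over 6000 bases had -0.37, -0.17, 0.02 and 0.01. Over the 16 libraries the median deviation of the 87 genes and that of the other short transcripts had Pearson r = 0.90 and Spearman rho = 0.88, as a description of libraries that share their scaling and length profile. The part of transcript length in the results below was not tested.

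**Figure D2:**
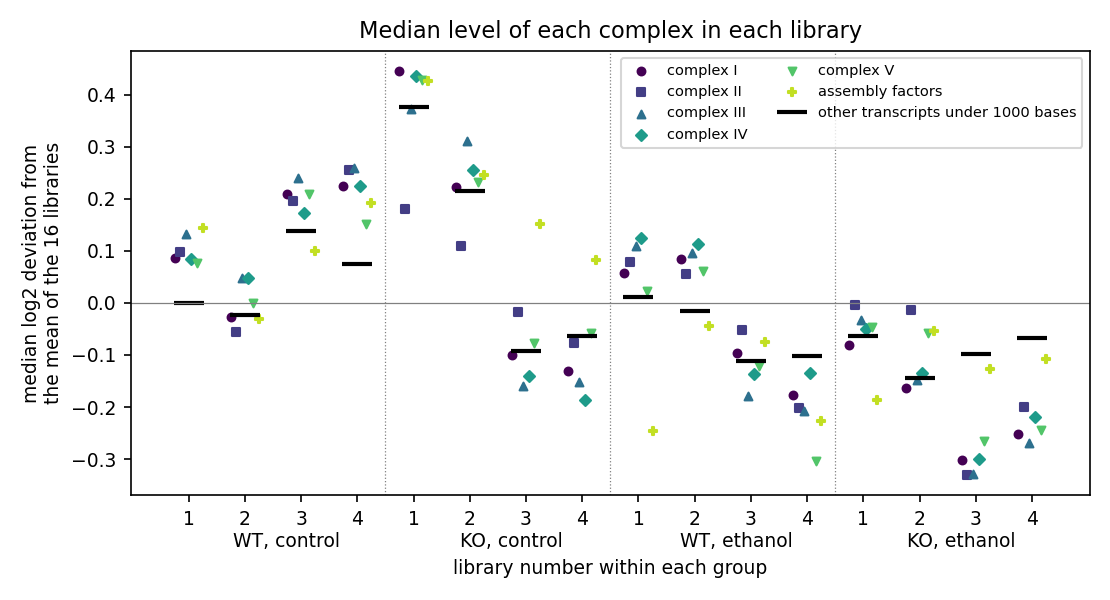
Median log2 deviation of each complex from the mean of the 16 libraries, by library. Coloured symbols are the complexes and assembly factors, black bars are other protein-coding transcripts under 1000 bases; knockout control libraries 1 and 2 lie above libraries 3 and 4 for every complex.

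The genotype comparison on control diet depended on these libraries. Knockout control libraries 1 and 2 had the highest deviations of the same 87 genes in their group. Leaving them out was bound to lower the knockout estimates, so the counts below do not test genotype. Without knockout control libraries 1 and 2, an analysis chosen after seeing the data, limma called 10 of the 87 genes lower and 0 higher, where 666 of the 13256 tested genes were called lower (5.02%) and 704 higher (5.31%). The median log2 fold change was -0.24, against 0.00 over all genes. Among the 10 were Ndufa3, Ndufa6, Ndufb7 and Ndufv3 of complex I, Uqcrb, Uqcrq and Uqcr11 of complex III, and Cox4i1 and Ndufa4l2 counted with complex IV. Uqcrq, a small subunit of complex III, shows the pattern: the wild-type control libraries held 3980, 3778, 4823 and 4266 normalised reads and the knockout ones 4951, 4360, 2889 and 2539. Knockout libraries 3 and 4 were below all wild-type ones and library 1 was above all of them. The log2 fold change of Uqcrq was -0.24 ± 0.17 (SE) with all libraries and -0.63 ± 0.14 (limma adjusted p = 0.0117) without the first 2. Cox4i1 held 5560, 5532, 5623 and 6010 in wild type and 7463, 6338, 4503 and 4239 in knockout, with the knockout libraries on both sides of the wild-type range.

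After ethanol, most of these transcripts had slightly lower estimates in knockout than in wild type, but no gene was called. Limma called 0 of the 87 higher and 0 lower, where the background was 9.88% of all tested genes, 6.13% higher and 3.75% lower. Of the 87 estimates 71 were negative, with a median log2 fold change of -0.11 against -0.02 over all tested genes. Of the 87, 6 had an unadjusted p under 0.05, all of them lower, where 3246 of the 13256 tested genes had one in either direction. The smallest adjusted p of the 87 was 0.0838. Neither edgeR nor DESeq2 on whole reads called any.

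Among these 6 were the accessory complex I subunits Ndufa7, Ndufb4, Ndufb9 and Ndufc2, and Uqcrq. Ndufb4, an accessory subunit of the membrane arm, had the lowest estimate. Its wild-type ethanol libraries held 152, 155, 112 and 126 normalised reads and its knockout ones 94.4, 83.8, 81.6 and 107, so that every knockout library was below every wild-type one. The log2 fold change was -0.56 ± 0.20 (SE, limma adjusted p = 0.0838), and 64.8% of the 75-base windows of Ndufb4 are unique to it. The medians by complex were -0.15 for complexes I and IV, -0.12 for II, -0.09 for III, -0.05 for V and 0.04 for the assembly factors.

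With ethanol in wild type, limma called 13 of the 87 genes lower (14.9%) and 0 higher, where 19% of all tested genes were called lower and 18.9% higher. The share called lower was thus below the background. Of the 87 estimates 76 were negative, and the median log2 fold change was -0.18, against -0.01 over all genes. With libraries scaled on the other transcripts under 1000 bases, an alternative chosen after seeing the data, 61 were negative, and the median was -0.07 against 0.09 over all genes. That scaling turned the split of all calls from 2508 higher and 2524 lower to 2678 higher and 1608 lower. With the deposited scaling, 18 of the 87 had an unadjusted p under 0.05, beside 6197 of the 13256 tested genes. The count of 13 fell to 8 without wild-type control library 1 and to 6 without wild-type control library 3 or 4 or wild-type ethanol library 3 or 4. Over all genes these 5 analyses gave 2113 to 2527 called lower. In these bulk livers, fewer cells of a type and less RNA per cell cannot be told apart.

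The 13 were spread over the complexes. They were 4 of 36 genes of complex I, 0 of 4 of complex II, 2 of 9 of complex III, 1 of 13 of complex IV, 3 of 16 of complex V and 3 of 9 assembly factors. The interval of the fold change lay within 1.5-fold for 67 of the 87 genes and within 2-fold for 86.

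In knockout, ethanol gave 12 of the 87 genes lower (13.8%) and 0 higher by limma, where 9.01% of tested genes were called lower and 10.2% higher. Of the 87 estimates 83 were negative, and the median log2 fold change was -0.26 against -0.01 over all genes. An unadjusted p under 0.05 was found for 38 of the 87 and for 4523 of the 13256 tested genes. By class the calls were 5 of 36 genes of complex I, 0 of 4 of complex II, 1 of 9 of complex III, 0 of 13 of complex IV, 3 of 16 of complex V and 3 of 9 assembly factors.

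This result rested on knockout control libraries 1 and 2. They were the highest of their group for the same 87 genes, with median deviations of 0.43 and 0.24. Leaving out these libraries was therefore bound to shrink the fall with ethanol. Without them 1 of the 87 genes was called lower, Ndufaf1, and the median was -0.06 against -0.02 over all genes. Over all tested genes the number called lower also went down, from 1195 to 477 (3.60%). Leaving out library 1 alone gave 4 calls and library 2 alone 3, where 855 and 762 of all genes were lower. Leaving out library 3 or 4 gave 23 or 25, where 1424 and 1080 of all genes were lower. Without knockout ethanol library 2, 3 or 4 the count was 7, 5 and 5, beside 846, 972 and 843 of all genes. With the scaling on short transcripts, the median of all genes moved to 0.19 and that of the 87 to -0.06, and 4 of the 87 were called lower. Scaling divides all genes of a library by the same factor. The distance between these medians was therefore bound to stay near -0.25, and its constancy says nothing about transcript length. That scaling turned the split of all calls from 1348 higher and 1195 lower to 2138 higher and 418 lower.

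**Figure D3:**
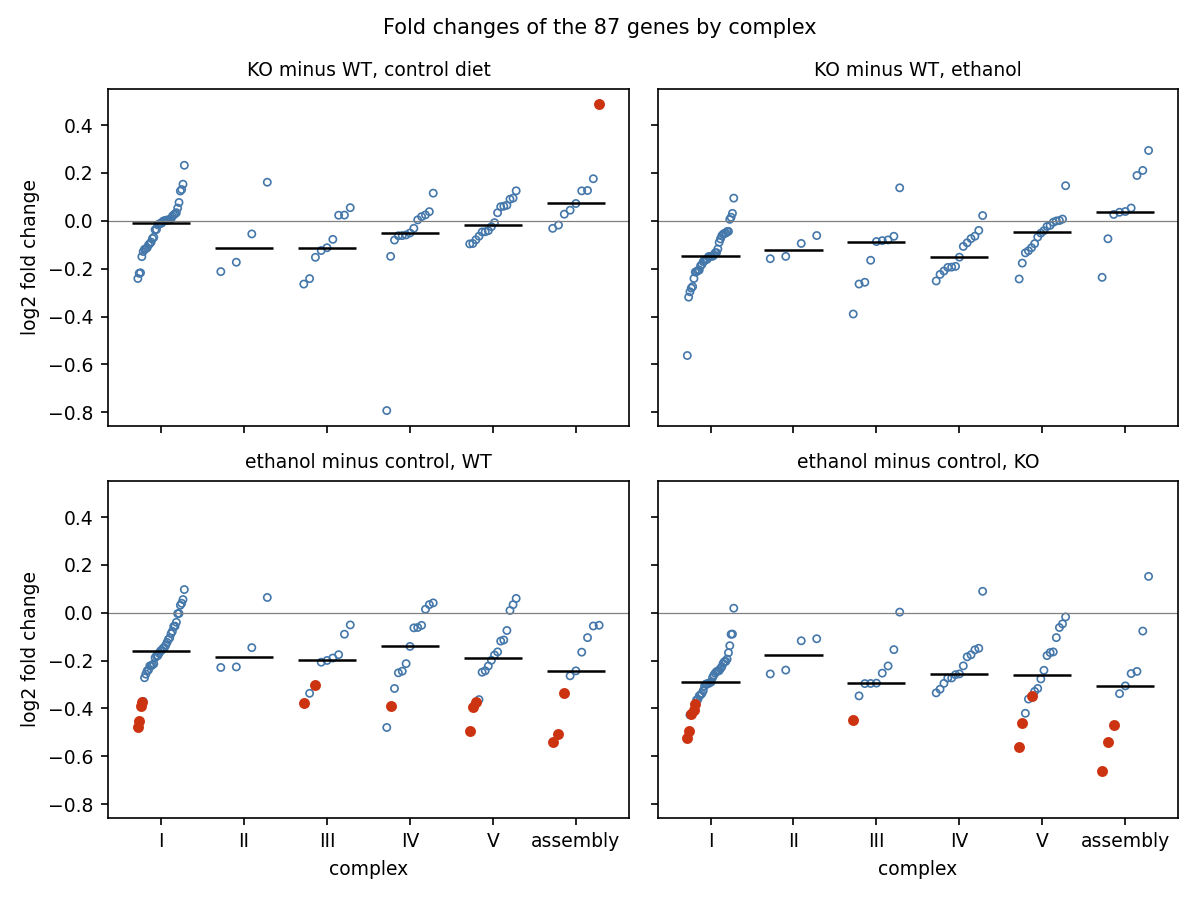
Fitted log2 fold changes of the 87 genes by complex, for genotype on each diet (top) and for ethanol in each genotype (bottom). Filled red points are genes called by limma at an adjusted p under 0.05, open points are the others and black lines are medians; the medians of every complex lie below 0 in both ethanol panels.

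The ethanol calls overlapped in 8 genes: Ndufs8, Ndufb2 and Ndufv3 of complex I, Atp5e, Atp5j and Atp5k of complex V, and the assembly factors Ndufaf1 and Ndufaf6. These 8 are 8 of the 13 called in wild type and 8 of the 12 called in knockout. Of all tested genes, 2524 were called lower in wild type and 1195 in knockout. How many of them were called lower in both was not counted, so the overlap is not shown to be particular to the 87 genes. A further 5 were called in wild type, Ndufa6, Uqcrfs1, Cyc1, Cox7a2 and Ndufaf2, and a further 4 in knockout, Ndufa8, Ndufa13, Uqcr11 and Ndufaf8. No gene of the 87 was called by limma for the difference of the ethanol effects, knockout minus wild type, where 0.347% of all genes were called, so a gene called in a single genotype is not shown to respond differently. The smallest adjusted p of that difference was 0.412, for Sdhc. Of the 87, 0 had an unadjusted p under 0.05, beside 1772 of the 13256 tested genes. Its interval lay within 1.5-fold for 61 of the 87 genes and within 2-fold for 84. The median difference was -0.09 with all libraries and 0.12 without knockout control libraries 1 and 2, so its sign depended on them. Leaving out these libraries, the highest of their group for the 87 genes, was bound to raise it.

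Ndufaf1 (ENSMUSG00000027305, chromosome 2, 119655446 to 119662827), whose protein is needed to assemble the membrane arm of complex I, fell in both genotypes. In wild type it went from 387, 367, 388 and 387 normalised reads on control diet to 275, 296, 244 and 262 after ethanol. In knockout it went from 440, 401, 372 and 397 to 307, 298, 240 and 265. Every ethanol library was below every control library in both genotypes. The log2 fold change was -0.51 ± 0.10 (SE, limma adjusted p = 0.000742) in wild type and -0.54 ± 0.10 (adjusted p = 0.00132) in knockout. Both calls held in all 31 alternative analyses, with adjusted p up to 0.00932 in wild type and 0.0384 in knockout.

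Ndufaf6, another complex I assembly factor, had the lowest estimate of the 87 with ethanol in each genotype. Its wild-type libraries went from 184, 199, 170 and 166 normalised reads to 94.6, 162, 112 and 133, and its knockout libraries from 242, 240, 178 and 164 to 136, 151, 99.0 and 131. The groups did not overlap in either genotype, with log2 fold changes of -0.54 ± 0.18 (SE, limma adjusted p = 0.0229) and -0.66 ± 0.18 (adjusted p = 0.0144). The call was lost in 7 of 31 alternatives in wild type (adjusted p up to 0.0829) and in 5 of 31 in knockout (adjusted p up to 0.218), among them leaving out knockout control library 2.

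Ndufs8, a core subunit that carries iron-sulfur clusters on the electron path of complex I, went in wild type from 909, 846, 970 and 949 normalised reads to 730, 693, 649 and 613. In knockout it went from 1165, 952, 822 and 773 to 731, 692, 566 and 623. All ethanol libraries were again below all control libraries (log2 -0.45 ± 0.12 SE, limma adjusted p = 0.00687, and -0.50 ± 0.12, adjusted p = 0.00842). Ndufb2, an accessory subunit of the membrane arm, had 213, 211, 212 and 219 normalised reads in wild type on control diet and 160, 156, 162 and 138 after ethanol (log2 -0.48 ± 0.13 SE, adjusted p = 0.00836). Its call in wild type held in all 31 alternatives, and in knockout its groups overlapped.

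Of the ATP synthase, the 3 genes called in both genotypes encode small non-catalytic subunits: Atp5e the epsilon subunit of the central stalk, Atp5j the F6 subunit of the peripheral stalk, and Atp5k the membrane subunit e. Atp5e had 1623, 1499, 1797 and 1724 normalised reads in wild type on control diet and 1361, 1292, 1030 and 1053 after ethanol. Its knockout libraries held 2313, 2048, 1459 and 1284 on control diet and 1359, 1167, 1166 and 1014 after ethanol, so that the knockout groups overlapped. The catalytic core had smaller estimates: Atp5b had 15431 ± 675 normalised reads (SD, n = 4) in wild type on control diet and 15561 ± 1221 after ethanol, with a log2 fold change of 0.01 ± 0.10 (SE, not called). Atp5a1, the alpha subunit, had a log2 fold change of -0.16 ± 0.11 in each genotype and was not called either. The transcripts of Atp5e, Atp5j and Atp5k are 421, 809 and 371 bases long, against 1916 for Atp5b and 2471 for Atp5a1. The part of transcript length in the smaller estimates was not tested.

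**Figure D4:**
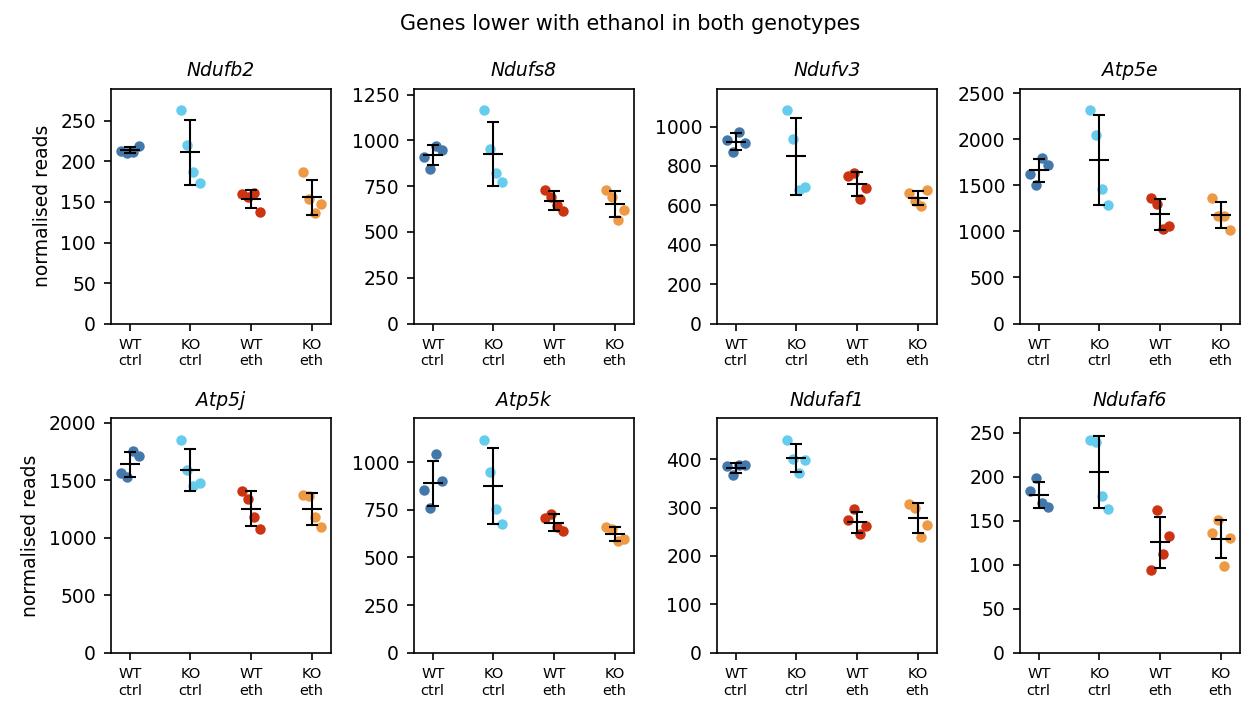
Normalised reads in every library for the 8 genes called lower with ethanol in both genotypes, with the mean and SD of each group in black (n = 4). In wild type every ethanol library lies below every control library for all 8 genes, and in knockout the groups overlap for Atp5e and Ndufb2.

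In complex III, the calls in wild type were Uqcrfs1, the Rieske iron-sulfur protein, and Cyc1, cytochrome c1, both on the electron path. Cyc1 had 2668, 2562, 2862 and 2860 normalised reads in wild type on control diet and 2463, 2426, 2160 and 1886 after ethanol, with no overlap (log2 -0.30 ± 0.11 SE, limma adjusted p = 0.0387). In knockout its estimate was -0.25 ± 0.11 and it was not called. The core proteins Uqcrc1 and Uqcrc2 had log2 fold changes of -0.05 and -0.18 in wild type and were not called.

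Of the 4 genes of complex II, the complex with no mitochondrially encoded subunit, 0 were called in any comparison. Of all tested genes 19% were called lower with ethanol in wild type and 9.01% in knockout. The median log2 fold change with ethanol was -0.19 in wild type, against -0.16 for complex I, and -0.18 in knockout, against -0.29. With 4 genes the lack of calls does not set apart complex II. Sdha, its flavoprotein and the largest subunit, had 8091, 7362, 8106 and 8320 normalised reads in wild type on control diet and 6974, 7089, 6886 and 6260 after ethanol. The groups did not overlap, but the log2 fold change of -0.23 ± 0.11 (SE, limma adjusted p = 0.103) missed the threshold. In knockout Sdha held 6474, 7529, 7035 and 7251 on control diet and 7465, 7408, 5534 and 5873 after ethanol.

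In complex IV, Cox7a2, the widely expressed form of subunit 7a, was the gene called with ethanol in wild type. It went from 1550, 1640, 1877 and 1775 normalised reads to 1484, 1366, 1277 and 1115 (log2 -0.39 ± 0.13 SE, limma adjusted p = 0.0245), and in knockout its estimate was -0.33 ± 0.13.

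The ethanol calls also depended on which ethanol libraries were used. The wild-type ethanol libraries 1 and 2 had median deviations of the 87 genes of 0.05 and 0.07, and libraries 3 and 4 of -0.11 and -0.21. With ethanol libraries 1 and 2 alone, limma called 2 genes lower in wild type and 1 in knockout, and with libraries 3 and 4 alone it called 12 in each. The counts over all genes ran the other way: 2485 (18.7%) lower with libraries 1 and 2 against 1559 (11.8%) with 3 and 4 in wild type, and 958 (7.23%) against 677 (5.11%) in knockout. The median of the 87 genes in wild type was -0.06 with libraries 1 and 2, where 55 estimates were negative, and -0.28 with libraries 3 and 4, where 83 were. In knockout it was -0.18 and -0.34. The labels do not say what these numbers mark.

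With ethanol in wild type, transcripts encoded in mitochondrial DNA were called in the opposite direction. The chain needs both sets, since complexes I, III, IV and V each hold subunits of both origins. Of 11 tested mitochondrial transcripts of 13 listed, limma called 7 higher and 0 lower with ethanol in wild type, and 1 higher in knockout. The background was 18.9% and 10.2% of all tested genes called higher. For genotype 4 were lower in knockout on control diet and 7 after ethanol, where 5.24% and 3.75% of all tested genes were. Group means of mt-Co2, mt-Co3, mt-Atp6 and mt-Nd3 were 21.1 to 376 normalised reads, against 59509 to 196813 for mt-Co1 and mt-Cytb. Why these were low was not tested, and they count equally in the mean of the 11. The mean log2 level of the 11 minus that of the 78 nuclear subunit genes was 2.38 ± 0.16 (SD, n = 4) in wild type on control diet and 3.15 ± 0.12 after ethanol. In knockout it was 1.91 ± 0.23 on control diet and 2.55 ± 0.25 after ethanol. Without knockout control libraries 1 and 2, 3 mitochondrial transcripts were lower in knockout on control diet, where 10 of the 87 nuclear genes were also lower. As shares of all reads, the 87 genes held 1.12% to 1.22% in wild-type control libraries and 0.957% to 1.05% in wild-type ethanol libraries. In knockout they held 1.14% to 1.497% on control diet and 1.07% to 1.12% after ethanol.

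**Figure D5:**
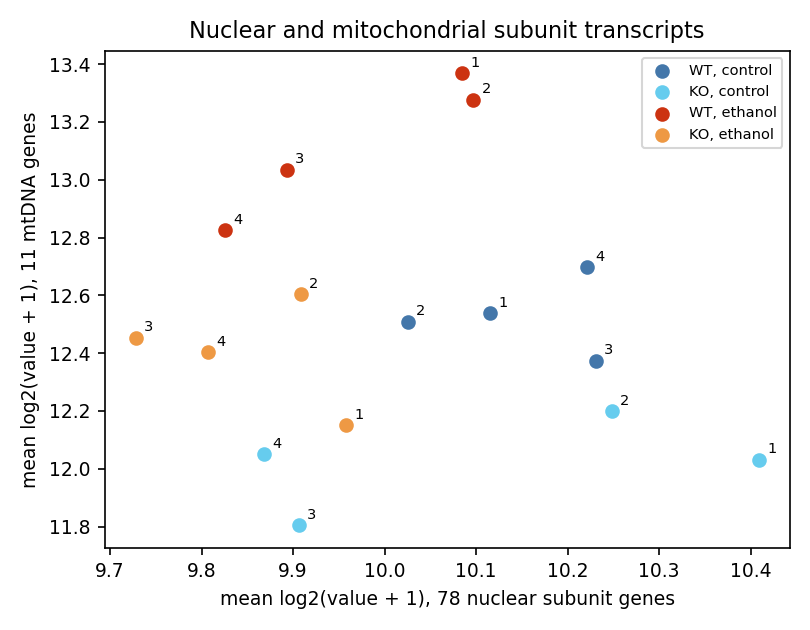
Mean log2(value + 1) of 11 mitochondrial transcripts against that of 78 nuclear subunit genes, for each of the 16 libraries, numbered within its group. The 4 wild-type ethanol libraries lie highest on the vertical axis, at 12.8 to 13.4, and the knockout control libraries at 11.8 to 12.2, while on the horizontal axis the knockout control libraries spread from 9.87 to 10.4.

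Assembly factors outside the symbol rule, from lists of known factors, included further genes that fell with ethanol. For these counts the background with ethanol in wild type was 19% of all tested genes called lower and 18.9% higher. In knockout it was 9.01% lower and 10.2% higher. Of 5 tested factors of complex V, 3 were lower in both genotypes: Tmem242, Fmc1 and Atpaf2. Fmc1 went from 289 ± 30.9 to 171 ± 29.8 normalised reads (SD, n = 4) in wild type (log2 -0.76 ± 0.17 SE, limma adjusted p = 0.00247). Of 6 factors of complex III, 3 were lower in wild type (Uqcc2, Uqcc3 and Bcs1l) and 1 in knockout (Bcs1l, which inserts the Rieske protein). Of 12 further factors of complex I, 4 were lower in wild type (Ecsit, Dmac2, Acad9 and Aifm1) and 2 in knockout (Ecsit and Dmac2). Ecsit went from 476 ± 24.4 to 291 ± 24.0 in wild type (log2 -0.71 ± 0.10 SE, adjusted p = 5.47e-05). Of 4 factors of complex II, Sdhaf3 was lower in wild type. Of 23 factors of complex IV, 2 were higher and 2 lower in wild type and 3 were lower in knockout. Without knockout control libraries 1 and 2, none of the complex III and V factors was called in knockout, while 2 complex I factors were called lower. In that fit 3.60% of all tested genes were called lower.

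Between genotypes, few of these factors differed. Cox19, a copper-handling factor of complex IV, was higher in knockout on control diet (log2 0.35 ± 0.10 SE, limma adjusted p = 0.0353) and after ethanol (0.45 ± 0.10, adjusted p = 0.00911). Acad9, a complex I assembly factor, and Uqcc2 were higher in knockout after ethanol, at log2 0.47 ± 0.10 (adjusted p = 0.00696) and 0.48 ± 0.15 (adjusted p = 0.0487). Dmac2 was lower in knockout on control diet (-0.45 ± 0.14, adjusted p = 0.0405).

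Of 19 transcriptional regulators of mitochondrial genes, limma called 5 higher and 3 lower with ethanol in wild type, and 2 higher and 1 lower in knockout. For these and the next lists the background was 18.9% of all tested genes higher and 19% lower in wild type, and 10.2% and 9.01% in knockout. Pprc1, a coactivator related to PGC-1, went from 209 ± 37.4 to 474 ± 38.9 normalised reads in wild type (SD, n = 4; log2 1.19 ± 0.15 SE, adjusted p = 1.58e-05), and Nrf1, a transcription factor for nuclear respiratory genes, rose by log2 0.63 ± 0.11 (adjusted p = 0.000340). Ppara, the fatty acid receptor, fell by 1.53 ± 0.22 on the log2 scale in wild type (adjusted p = 6.74e-05) and was lower in knockout on control diet (-1.09 ± 0.22, adjusted p = 0.00431). Its ethanol effect differed between the genotypes, with a difference of log2 1.57 ± 0.31 for knockout minus wild type (SE, limma adjusted p = 0.0417). Gabpa, the DNA-binding subunit of NRF-2, was lower in knockout on both diets (-0.33 ± 0.09, adjusted p = 0.0301, and -0.42 ± 0.09, adjusted p = 0.00805). Of 13 genes of the tricarboxylic acid cycle, which feeds the chain, 5 were higher and 2 lower in wild type and 4 were higher in knockout. Of 19 genes for coenzyme Q and cytochrome c, 2 were higher and 2 lower in wild type, and 1 higher and 3 lower in knockout. Coq8a fell and its paralogue Coq8b rose in each genotype, by log2 -1.36 ± 0.19 and 1.78 ± 0.32 in wild type (adjusted p = 4.62e-05 and 0.000468).

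Markers of other liver cells moved with the groups. The summed level of 13 macrophage markers was 3224 to 7312 normalised reads in wild type on control diet, 1209 to 1792 in wild type after ethanol, 7568 to 12010 in knockout on control diet and 6532 to 8316 in knockout after ethanol. Limma called 8 of the 13 higher in knockout on control diet, 13 after ethanol, and 11 lower with ethanol in wild type. The shares of all tested genes called so were 6.4%, 6.13% and 19%. Of 11 hepatocyte markers, 3 were lower in knockout on control diet and 2 after ethanol, and 3 were higher with ethanol in wild type. Here the shares over all tested genes were 5.24%, 3.75% and 18.9%. The hepatocyte sum, most of which is Alb, was 1641620 to 1929440 in wild type on control diet and 1307020 to 1379960 in knockout. Of 8 endothelial markers 5 were higher with ethanol in wild type, beside the same 18.9% of all tested genes. Pancreas markers reached a sum of 8683 in a knockout ethanol library, against 308 at most in wild type on control diet. The part of cell composition in the values of the 87 genes was not tested.

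The promoters of several of these genes hold known motifs of respiratory gene regulators. RefSeq promoters (GRCm38.p6, 250 bases before to 50 after the start) were matched for 70 of the 87 genes and searched on both strands. The 10-base NRF1 palindrome, spelled out in capitals in the lines below, was found in 7 of 70 promoters (10%), against 2.16% of 9405 RefSeq promoters. The YY1 motif AAGATGGCG was in 7 of 70 (10%), against 3.39%, and the ERRA motif TCAAGGTCA in 2 of 70 (2.86%), against 0.266%. The ETS motif CCGGAAGT, read by GABPA, was in 7.14% of the 70 and 8.65% of all, and the SP1 motif GGGCGG in 44.3% and 64.3%. The RefSeq start lay more than 50 bases from the GENCODE start for 23 of the 70. All 7 YY1 matches began 10 to 35 bases after the RefSeq start, and the ERRA match of Sdhd began 36 bases after it. A match describes letters in this window and is not a measured binding site.

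The NRF1 matches that lie wholly before the RefSeq start are shown because Nrf1 is among the regulators called above. Each line gives 60 bases 5′ to 3′ on the gene's strand, with the motif in capitals. The Atp5k and Atp5g2 motifs overlap the GENCODE span of their gene, whose principal start lies 49 and 80 bases from the RefSeq start.
Atp5k, chr5:108434415-108434474, minus strand: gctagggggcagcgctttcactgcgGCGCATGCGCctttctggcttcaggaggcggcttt
Atp5g2, chr15:102671055-102671114, minus strand: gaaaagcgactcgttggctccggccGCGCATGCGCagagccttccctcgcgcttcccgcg
Cox6a1, chr5:115349086-115349145, minus strand: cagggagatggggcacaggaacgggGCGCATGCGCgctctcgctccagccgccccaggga
Ndufa11, chr17:56717677-56717736, plus strand: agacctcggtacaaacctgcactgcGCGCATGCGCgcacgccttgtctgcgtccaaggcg
Ndufaf4, chr4:24897945-24898004, plus strand: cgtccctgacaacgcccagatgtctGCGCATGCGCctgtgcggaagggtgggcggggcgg

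Of these genes, Atp5k was called lower with ethanol in both genotypes and the other 4 were called in neither. The remaining matches, in Ndufaf5 and Uqcrc1, lie after the RefSeq start. The ERRA match of Atp5g3, the main c subunit gene of this liver, is shown for comparison, with capitals for the motif on the opposite strand.
Atp5g3, chr2:73911344-73911403, minus strand: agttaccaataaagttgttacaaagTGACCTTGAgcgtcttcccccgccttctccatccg

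Atp5g3 had a log2 fold change of -0.18 ± 0.14 (SE) with ethanol in wild type and -0.24 ± 0.14 in knockout, and was called in neither.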

How the data were processed

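Values deposited by the authors are a scaled signal: gene read counts over a size factor of the library, between 0.814 and 1.26. The submitters' processing notes name GRCm38, edgeR, HTSeq and HISAT2 2.1.0.13, and the strand setting is not given in the sources used here. Multiplied back, all values came out as whole reads (tolerance 0.01). Symbols, coordinates and transcripts are from GENCODE M21. Genes with a mean of at least 10 over the 16 libraries (13256) were put on the scale log2(value + 1) and fitted with limma 3.58.1 (R 4.3.3, with a trend) as 4 group means and 5 contrasts. Calls are at an adjusted p (Benjamini-Hochberg, over all tested genes) under 0.05. Fold changes are on the value + 1 scale, which understates changes of low genes. edgeR 4.0.16 and DESeq2 1.42.0 on whole reads were alternatives. The script was tested on simulated data. The 87 genes past this floor were tested, and the 5 protein-coding matches under it were not. The rule for naming took per complex the highest and lowest levels, the called genes of smallest p, the extreme fold changes and the tissue isoforms; not all of them are named, and the choice among them, and Atp5a1 and the lists of calls, followed after their values were seen. Values of 1 gene are not reported here by name. The members and lists were chosen with earlier results of these data known.

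Whether library numbers pair the groups was checked by the correlation of same-numbered libraries' deviations from their group means. Only between the ethanol groups was every pair above 0.1, from 0.102 to 0.246, and differently numbered libraries there ran from -0.25 to 0.20. Between these groups, libraries numbered 1 and 2 correlated at 0.0975 to 0.246, and those numbered 3 and 4 at 0.102 to 0.219. Libraries 1 and 2 against 3 and 4 were all negative, from -0.25 to -0.0762. The ethanol libraries of both genotypes thus split alike by number, and the main fit of 4 group means does not include that split.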

Additional observations from a re-analysis of the deposited data

Results flagged for a closer look

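The per-library values of 32 of the genes and the summary levels were screened for a library far from the other 3. Of 160 groups of 4, 4 were flagged, fewer than the about 1 in 20 groups that chance alone gives. The 4 are listed as a description. Ndufa6, an accessory complex I subunit called lower with ethanol in wild type, had 1299 normalised reads in wild-type ethanol library 4 against 1536 to 1548 in the other 3. Ndufaf1 had 367 in wild-type control library 2 against 387 to 388 in the other 3, a small difference beside the ethanol libraries at 244 to 296. Uqcrc1, a core protein of complex III, had 3019 in a wild-type control library against 3217 to 3222 in the other 3. Cox8b, the muscle and heart form of subunit 8, had 1.23 in a wild-type ethanol library and 0 in the other 3.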

How the results depend on the processing

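None of the 26 calls of named genes changed sign in any of 31 alternatives. Genes higher in knockout on control diet went from 1 to 0 with no filter, with only the groups compared, with the replicate block, without knockout ethanol libraries 1 and 4, with ethanol libraries 3 and 4 only, with scaling on transcripts under 1000 bases and without knockout control libraries 1 and 2; without that last pair 10 were lower, with a median of -0.2361. Genes lower in knockout after ethanol went from 0 to 1 with only the groups compared or scaling on short transcripts, and to 2 without knockout control libraries 1 and 2. With ethanol in wild type, 13 lower became 2 with ethanol libraries 1 and 2 only and 8 with scaling on short transcripts. Of all tested genes 18.7% and 12.1% were lower in these fits, and 19% in the main fit. In knockout, 12 became 6 with no filter, 5 with only the groups compared and 19 with DESeq2. The share of all tested genes lower was 9.01% in the main fit and 3.43%, 8.32% and 11.2% in these fits. The count of 12 became 2 without knockout ethanol libraries 1 and 4 and 1 with ethanol libraries 1 and 2 only, beside 3.21% and 7.23%. Scaling on short transcripts gave 4, and leaving out knockout control libraries 1 and 2 gave 1, beside 3.15% and 3.60%. The last 2 moved the median to -0.0588 and -0.0626, and the latter moved the median difference of the ethanol effects to 0.124. The cause was not tested.

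Leaving out each library in turn gave 0 to 1 genes higher and 0 to 1 lower in knockout on control diet, 0 to 1 lower after ethanol, and with ethanol 6 to 17 lower in wild type and 3 to 25 in knockout. The medians ran from -0.1223 to 0.0665 and from -0.153 to -0.058 for genotype on control diet and ethanol, from -0.2154 to -0.1255 and from -0.3488 to -0.1744 for ethanol in wild type and knockout, and from -0.1772 to 0.0058 for the difference. With the replicate number as a block, 14 genes were lower with ethanol in each genotype, and apart from Ndufaf5 on control diet the block moved no count by over 1.5 times. Of the 26 calls of named genes, 3 held under all alternatives: Ndufaf1 in both genotypes and Ndufb2 in wild type. Depth limits genes such as Atp5g2 and Ndufa4l2, with fewer than 30 normalised reads per library.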
